A study of Homo sapiens with 2 samples.

Results

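The BCL2 family genes were followed in RNA sequencing of NB4 cells after knockdown of the long non-coding RNA CRNDE. NB4 is a human cell line of acute promyelocytic leukemia (APL) that carries the PML/RARα fusion. The cells were infected for 3 days with a lentivirus for an shRNA against CRNDE (sh-CRNDE) or for a non-targeting shRNA (sh-Control), and total RNA of each was sequenced as 1 library. Both groups thus share the cell line, the fusion and the lentiviral infection, and the CRNDE shRNA in the sequenced cells is not named more closely. Of 11619 listed genes, 10 were taken by symbol, and all 10 had a value in both libraries. They comprised 4 anti-apoptotic genes (BCL2, BCL2L1, MCL1 and BCL2A1), 2 effectors (BAX and BAK1), 3 BH3-only genes (BID, BAD and BCL2L11) and BCL2L13, which belongs to none of these classes. The members were selected on their FPKM values in these same 2 libraries, so that every level and change below is a description without a test. With 1 library per group, no difference could be set against a spread between replicates.

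Proteins of the BCL2 family decide whether the outer membrane of the mitochondrion stays intact. The effectors BAX and BAK assemble into pores that let cytochrome c out, after which caspases are activated. Anti-apoptotic members hold effectors and BH3-only proteins in check, while the BH3-only proteins, which share with the rest of the family just the short BH3 helix, either bind the anti-apoptotic members or engage the effectors directly. In myeloid cells MCL1 is known for its dependence on short-lived mRNA and protein, and BCL2 is the target of venetoclax, a drug used in acute myeloid leukemia.

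CRNDE was at 5.92 FPKM with sh-Control and 1.85 FPKM with sh-CRNDE, where FPKM is the number of sequenced fragments adjusted for transcript length and for the size of the library. In bulk RNA of a culture, fewer cells of a kind and less RNA per cell cannot be told apart. The FPKM values carry no read counts, so the depth of the libraries is unknown and no counting interval could be given. Of 8 promyelocyte marker genes fixed for the check of the cell type, 6 had a value, while ELANE and KIT had none. Values of the 6 ran from 3.74 FPKM (CD33 in sh-CRNDE) to 1135 FPKM (MPO in sh-Control). Of these, 4 (MPO, AZU1, PRTN3 and CTSG) were lower in sh-CRNDE past 1.5-fold, with MPO within it, at -0.44, after a subtraction for GC content described below. Of 8 lymphoid and erythroid markers, taken to be absent from NB4, 3 had a value, CD3D and CD79A among them. The highest value was 1.16 FPKM, for CD3D in sh-CRNDE. CD79A was at 1.02 FPKM with sh-Control and 0.256 FPKM with sh-CRNDE, a change of -0.68 and past 1.5-fold. This came to -0.46, within 1.5-fold, after the subtraction for GC content. The change of a gene is its log2(FPKM + 1) in sh-CRNDE less that in sh-Control, and a change past 1.5-fold is one over 0.585 in size on this scale. The pseudocount of 1 understates the change of weakly expressed genes.

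The study placed CRNDE beside the miR-181 family, which it describes as bound by CRNDE. Mature miR-181 sequences and the sites that match them in BCL2 family transcripts are shown for that reason. A microRNA recognizes its targets mainly through its seed, bases 2 to 8, given in capitals in the mature sequences from RefSeq (GRCh38.p14). All 4 share the same seed.
hsa-miR-181a-5p: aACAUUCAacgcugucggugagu
hsa-miR-181b-5p: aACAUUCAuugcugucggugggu
hsa-miR-181c-5p: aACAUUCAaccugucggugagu
hsa-miR-181d-5p: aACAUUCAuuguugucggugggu

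The DNA letters that pair with this seed, TGAATGT, were searched on the transcript strand in the longest annotated 3′ UTR of each gene (GENCODE release 44, GRCh38). Of the 10 members, 2 held the letters once each, which is 20% of them, against 22.3% of the 9900 listed protein-coding genes with an annotated 3′ UTR. The sites of these members, BCL2 and BCL2L11, are given with the matching letters in capitals and in the direction of the transcript. The site of BCL2 is printed from chr18:63125712-63125740 on the minus strand, in a 3′ UTR of 5279 bases, and that of BCL2L11 from chr2:111164428-111164456 on the plus strand, in a 3′ UTR of 4213 bases.
BCL2: gttagaagcaaTGAATGTatataaaagcc
BCL2L11: gaagtttgttgTGAATGTaaaggagggag

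These 2 genes differed in opposite directions, BCL2 being higher and BCL2L11 lower in sh-CRNDE, as described below. MCL1 and BAK1, the members with the largest differences, did not hold the letters in the 3′ UTR that was searched. Only these letters were searched for, and other forms of seed match were not. A match is a description of the sequence and not a site shown to be used, and no microRNA was measured in these libraries.

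Among the anti-apoptotic genes, MCL1 was the member that differed most between the libraries, and all 4 genes were higher in sh-CRNDE. MCL1, which binds BAK and BIM and is lost quickly when its synthesis stops, was at 8.21 FPKM with sh-Control and 37.2 FPKM with sh-CRNDE. This is a 4.54-fold higher value and a change of 2.05. Of all listed genes, 99.2% had a lower change than MCL1. BCL2A1, a small anti-apoptotic gene known as a target of NF-κB, was at 1.29 FPKM with sh-Control and 2.45 FPKM with sh-CRNDE. Its value was 1.90-fold higher in sh-CRNDE, and its change of 0.59 was just past the threshold of 0.585. The change was 0.87 and 0.92 with pseudocounts of 0.1 and 0.01, and 0.44, within the threshold, after correction for GC content. BCL2 itself was the weakest of the 10 members in both libraries, with 0.989 FPKM with sh-Control and 1.46 FPKM with sh-CRNDE, and its change of 0.31 was not past the threshold. BCL2L1, which encodes BCL-XL, was at 4.78 FPKM with sh-Control and 5.63 FPKM with sh-CRNDE, giving a change of 0.20. With the pseudocount of 1, the class thus held 2 genes past the threshold and 2 below it.

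The effector genes went the other way, and here the difference lay in BAK1 alone. BAK1, whose protein resides in the outer membrane and is restrained by MCL1 and BCL-XL, was the most abundant member in sh-Control, at 22.8 FPKM, and was at 4.58 FPKM in sh-CRNDE. The value in sh-Control was 4.97-fold that in sh-CRNDE, a change of -2.09, and 0.732% of all listed genes had a lower change. BAX, whose protein is mostly cytosolic until it is activated, was at 10.0 FPKM with sh-Control and 9.04 FPKM with sh-CRNDE. Its change of -0.14 was not past the threshold, and became 0.09 with the median change of genes near it in GC content taken off. BAX was the second most abundant member in both libraries. The FPKM of BAX over that of BAK1 was 0.440 in sh-Control and 1.97 in sh-CRNDE, so that the order of the effectors differed between the libraries. GENCODE lists the processed pseudogenes BAK1P1 and BAK1P2, neither of which was among the genes with values here. Reads that they share with BAK1 could have been assigned to either, which was not tested.

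**Figure D1:**
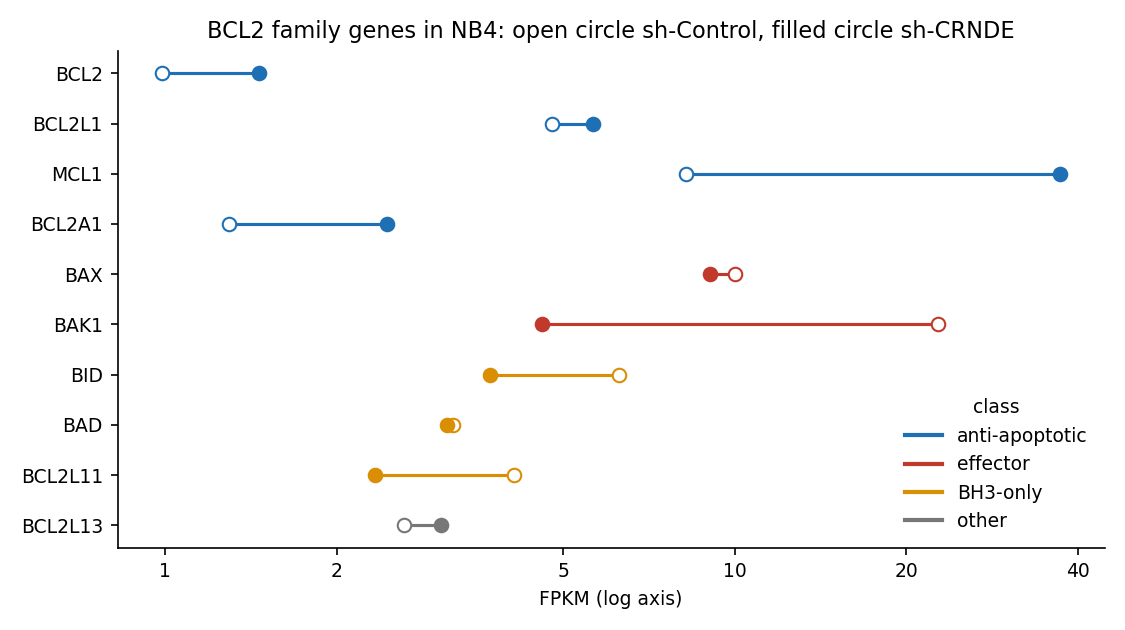
FPKM of the 10 BCL2 family members on a log axis, with sh-Control as open circles, sh-CRNDE as filled circles and colours for the classes; each circle is 1 library. The longest lines belong to MCL1 (8.21 to 37.2 FPKM) and BAK1 (22.8 to 4.58 FPKM), which run in opposite directions, while the circles of BAD and BAX nearly meet.

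Of the BH3-only genes, BID and BCL2L11 were lower in sh-CRNDE by similar amounts. BID, whose protein is cut by caspase-8 and links death receptors to mitochondria, was at 6.26 FPKM with sh-Control and 3.72 FPKM with sh-CRNDE, giving a change of -0.62. BCL2L11, which encodes BIM, a ligand of all anti-apoptotic members, was at 4.10 FPKM with sh-Control and 2.34 FPKM with sh-CRNDE, giving a change of -0.61. Both were just past the threshold. After quantile normalization BCL2L11 was at -0.58 and no longer past it, while BID remained past it under all 7 alternative scalings, pseudocounts and filters. BAD, whose protein is kept inactive by phosphorylation and 14-3-3 proteins, was at 3.21 FPKM with sh-Control and 3.12 FPKM with sh-CRNDE. Its change of -0.03 was the smallest of all members, and turned to 0.01 after quantile normalization and to 0.32 after the subtraction for GC content. BCL2L13, a member that is known as a receptor for mitophagy, was at 2.62 FPKM with sh-Control and 3.05 FPKM with sh-CRNDE, giving a change of 0.16.

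In all, 5 of the 10 members were past 1.5-fold, 2 of them higher (MCL1 and BCL2A1) and 3 lower (BAK1, BID and BCL2L11) in sh-CRNDE. After correction for GC content 4 were past it, with MCL1 as the 1 higher member. Over all listed genes 17.2% were past 1.5-fold, 8.38% higher and 8.83% lower. By level, it was 16.7% of genes with a mean of 1 to 5 FPKM, 17.6% of those with 5 to 20 FPKM and 15.9% of those above. Genes with a mean under 1 FPKM were not counted apart. Since the members were chosen with these values known, nothing is read from their share. The median change of the 10 members was 0.07, close to the -0.01 of all genes, because higher and lower members balanced. By class the medians were 0.45 for the anti-apoptotic, -1.11 for the effector and -0.61 for the BH3-only genes. At a threshold of 2-fold the past members were MCL1, higher, and BAK1, lower, where 6.66% of all genes were past it, 3.43% higher and 3.23% lower.

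**Figure D2:**
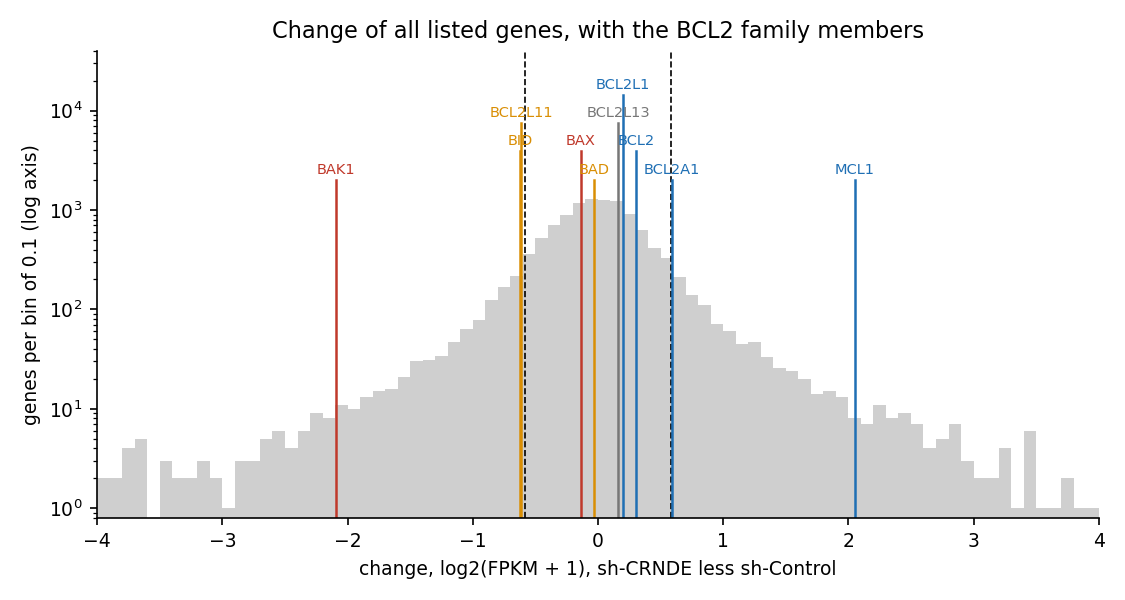
Number of genes by their change in log2(FPKM + 1), sh-CRNDE less sh-Control, in bins of 0.1 on a log axis, with the 10 members as coloured lines and dashed lines at 1.5-fold; 26 of 11619 genes lie outside the axis. MCL1 at 2.05 and BAK1 at -2.09 stand in the tails, BCL2A1, BID and BCL2L11 at the dashed lines and the other 5 members between them.

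Levels of FPKM are per length of transcript and can be compared between genes of 1 library. In sh-Control the order from high to low was BAK1, BAX, MCL1, BID, BCL2L1, BCL2L11, BAD, BCL2L13, BCL2A1 and BCL2. In sh-CRNDE it was MCL1, BAX, BCL2L1, BAK1, BID, BAD, BCL2L13, BCL2A1, BCL2L11 and BCL2. MCL1 moved from rank 3 to rank 1, BAK1 from rank 1 to rank 4 and BCL2L11 from rank 6 to rank 9. Without replicates it cannot be said which neighbours in these orders differ beyond their spread. Among all listed genes, BAK1 was above 89.4% of genes in sh-Control and above 54.5% in sh-CRNDE, and MCL1 above 69.4% and 93.98%, respectively.

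Summed by class, the FPKM of the anti-apoptotic genes was 15.3 in sh-Control and 46.8 in sh-CRNDE, and that of the effectors 32.8 and 13.6. The anti-apoptotic sum over the effector sum was thus 0.466 in sh-Control and 3.43 in sh-CRNDE, a 7.38-fold higher ratio. Each of these sums was led by 1 gene. MCL1 made up 53.7% of the anti-apoptotic sum in sh-Control and 79.6% in sh-CRNDE, and BAK1 made up 69.4% of the effector sum in sh-Control, where BAX made up 66.3% of it in sh-CRNDE. Without MCL1 the anti-apoptotic sum was 7.06 FPKM with sh-Control and 9.55 FPKM with sh-CRNDE, and without both MCL1 and BAK1 the ratio was 0.705 and 1.06, so most of the difference in the ratio came with these 2 genes. The sums without a gene were added after the values were seen.

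The BH3-only sum was 13.6 FPKM with sh-Control and 9.18 FPKM with sh-CRNDE, giving a change of -0.52 that was not past 1.5-fold. BID was the largest part of it in both libraries, with 46.1% in sh-Control and 40.5% in sh-CRNDE. The anti-apoptotic sum over the BH3-only sum was 1.13 in sh-Control and 5.09 in sh-CRNDE. For single pairs of known partners, MCL1 over BAK1 was 0.360 in sh-Control and 8.12 in sh-CRNDE, and MCL1 over BCL2L11 was 2.0 and 15.9. The 3 pairs computed without these genes moved less. BCL2 over BAX was 0.0986 in sh-Control and 0.162 in sh-CRNDE, BCL2L1 over BAX was 0.477 and 0.623, and BCL2L1 over BAD was 1.49 and 1.80. All these are ratios of mRNA levels, and protein was not analysed here. The sum over all 10 members, 64.3 FPKM with sh-Control and 72.6 FPKM with sh-CRNDE, had a change of 0.17.

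**Figure D3:**
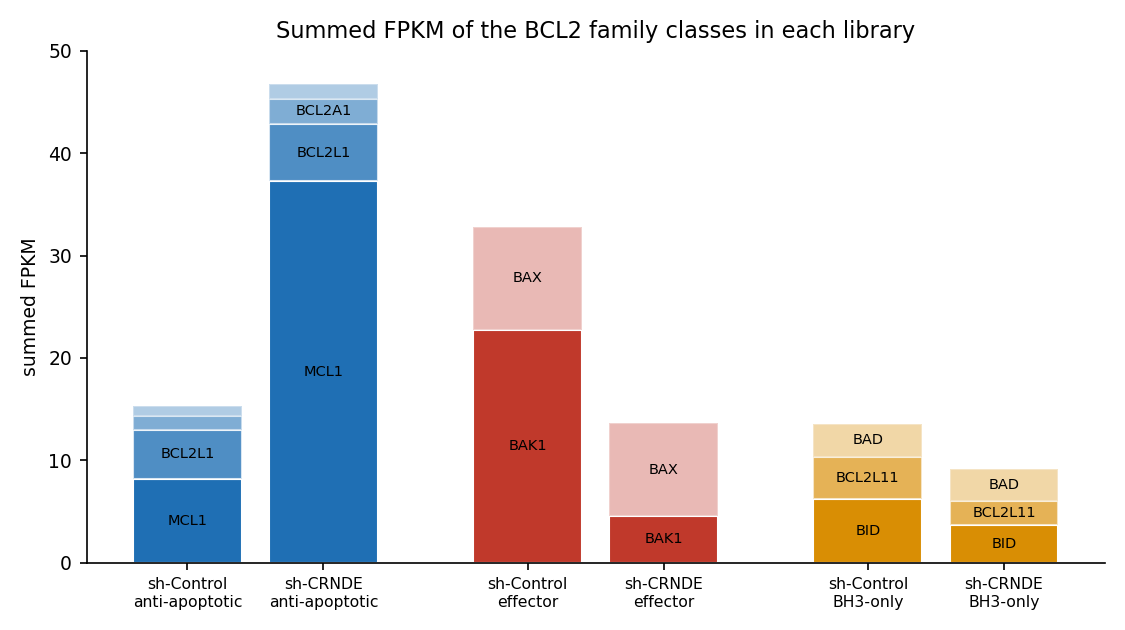
Summed FPKM of the anti-apoptotic, effector and BH3-only members in sh-Control and sh-CRNDE, stacked by gene from an axis that starts at 0; each bar is 1 library, and the pale unlabelled segments on the anti-apoptotic bars are BCL2A1 (sh-Control) and BCL2 (both). The anti-apoptotic bar is 15.3 FPKM high with sh-Control and 46.8 FPKM with sh-CRNDE, and the effector bar is 32.8 and 13.6 FPKM high.

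The members also differed in sequence composition, and the change of all genes moved with it. By the canonical GENCODE transcripts, the members had 2 to 7 exons, so none had a single exon. When the genes that reached 1 FPKM in each library were put into 4 equal groups by GC content, the median change was 0.17 in the lowest group and -0.25 in the highest, which began at 56.1%. BAK1 (58.6%), BAX (60.8%), BAD (65.8%) and BCL2L1 (56.6%) lay in the highest group, whereas MCL1 had 45.1% and BCL2A1, with 40.4%, lay in the lowest. The subtraction for GC content used the median change in 20 finer bins, not in these 4 groups. After it, MCL1 was at 1.98, BAK1 at -1.91, BID at -0.66 and BCL2L11 at -0.70, all still past 1.5-fold. MCL1 and BAK1 kept their direction and stayed past 1.5-fold in all 7 alternatives, within 1.98 to 2.18 for MCL1 and -2.31 to -1.91 for BAK1. Of the exons of the canonical member transcripts, those of BCL2L1 overlapped another gene, the antisense long non-coding RNA ABALON, by 945 bases, and the library kit named in the labels does not mark strand.

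**Figure D4:**
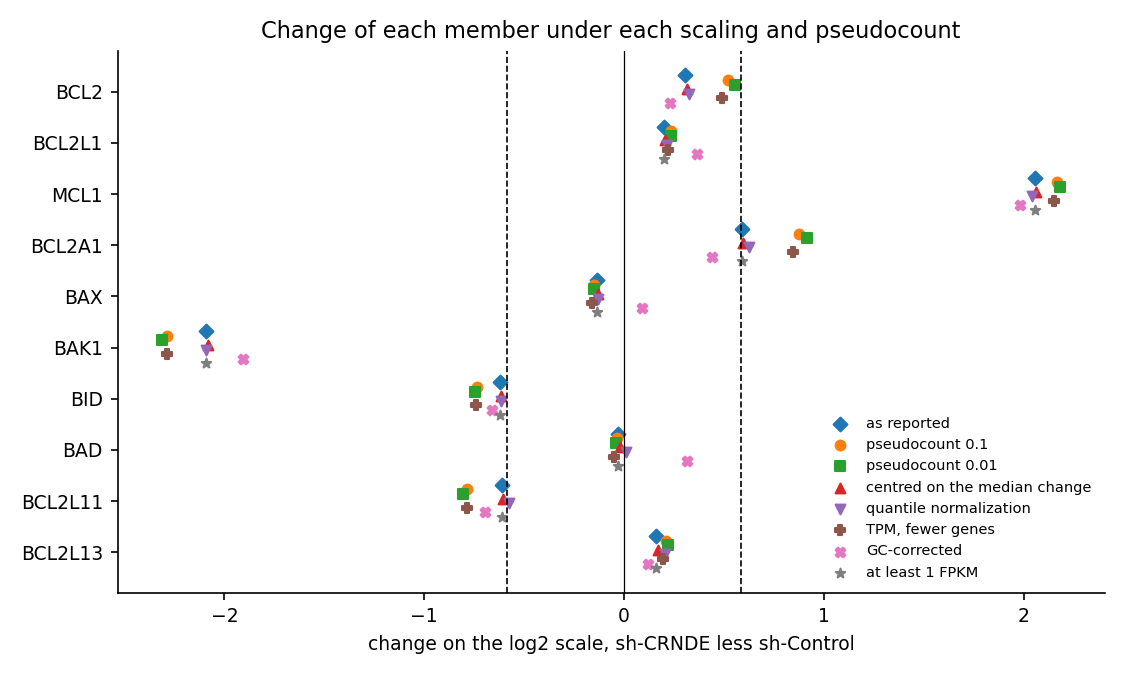
Change of each member on the log2 scale, sh-CRNDE less sh-Control, as given in the text (marked as reported) and under each of the other pseudocounts, scalings and filters (1 marker each), with dashed lines at 1.5-fold. The markers of MCL1 (from 1.98 to 2.18) and of BAK1 (from -2.31 to -1.91) stay far from the dashed lines, those of BCL2A1 and BCL2L11 lie on both sides of one, and those of BAX and BAD lie on both sides of 0.

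Besides the members, 14 genes of the BCL2 family were on the list, of which 9 had a value. None was higher past 1.5-fold and 1 was lower, with a median change of -0.14. Over all listed genes 8.38% were higher and 8.83% lower past it, and nothing is read from the count. The gene past it was BBC3, which encodes the BH3-only protein PUMA, at 1.64 FPKM with sh-Control and 0.425 FPKM with sh-CRNDE. Its change was -0.89, and -0.54, within 1.5-fold, after the subtraction for GC content. The sh-CRNDE value lies under 0.5 FPKM, the level that each listed gene exceeds in at least 1 library. The other BH3-only genes with a value were PMAIP1 (NOXA, the BH3-only ligand of MCL1; 3.78 FPKM with sh-Control and 3.55 FPKM with sh-CRNDE), BMF (0.722 and 0.547 FPKM) and BIK (0.593 and 0.460 FPKM). None of these 3 was past the threshold. BMF and BIK were under 1 FPKM in both libraries, where the pseudocount of 1 understates a change. PMAIP1 held the miR-181 seed match once in its 3′ UTR and had a change of -0.07. BCL2L2, which encodes the anti-apoptotic BCL-W, was at 2.33 FPKM with sh-Control and 1.84 FPKM with sh-CRNDE, giving a change of -0.23, opposite in sign to the 4 anti-apoptotic members. It shares exons with the readthrough gene BCL2L2-PABPN1, looked at after its values were seen. The readthrough gene was at 5.71 FPKM with sh-Control and 0.869 FPKM with sh-CRNDE, a change of -1.84. How reads were divided between these 2 is uncertain. Their summed value was 8.03 FPKM with sh-Control and 2.71 FPKM with sh-CRNDE, a change of -1.28 and past 1.5-fold. BCL2L12 (11.7 and 7.91 FPKM, a change of -0.51), the mitophagy receptor genes BNIP3 (16.8 and 15.1 FPKM) and BNIP3L (3.42 and 5.46 FPKM, a change of 0.55) and the autophagy gene BECN1 (5.79 and 7.29 FPKM) were not past the threshold. Without a pseudocount the FPKM of BNIP3L was 1.60-fold higher in sh-CRNDE. Other pseudocounts and scalings were not examined for genes outside the members that were within the threshold.

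Around the family, 61 genes were followed in 5 lists, of which 3 were higher and 8 lower past 1.5-fold, with a median change of -0.03. Over all listed genes 17.2% were past it, 8.38% higher and 8.83% lower. These shares apply to each of the 5 lists, and nothing about a pathway is read from the counts. Among 11 genes of the outer mitochondrial membrane and of mitochondrial dynamics, 2 were lower and none was higher past it. These were MTCH1 (22.9 FPKM with sh-Control and 11.9 FPKM with sh-CRNDE, giving a change of -0.89), a membrane protein insertase, and the mitofusin gene MFN2 (30.6 and 17.7 FPKM, a change of -0.76). VDAC2, whose channel protein binds BAK, was at 69.0 FPKM with sh-Control and 63.4 FPKM with sh-CRNDE, and MTCH2, the membrane receptor of cut BID, at 41.9 and 31.8 FPKM, neither past the threshold. The list's median change was -0.12.

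Of 11 genes for caspases and their inhibitor, the apoptosome and factors released from mitochondria, 2 were lower and none higher past 1.5-fold. Of these, the nuclease gene ENDOG was at 8.70 FPKM with sh-Control and 2.51 FPKM with sh-CRNDE, giving a change of -1.47. CYCS, which encodes cytochrome c, was at 85.6 FPKM with sh-Control and 99.7 FPKM with sh-CRNDE, within the threshold. The list's median change was -0.01.

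Of 8 genes for the turnover of MCL1 protein, 1 was higher past 1.5-fold and none was lower. This was GSK3B, a kinase that marks MCL1 for degradation, at 2.02 FPKM with sh-Control and 6.75 FPKM with sh-CRNDE, giving a change of 1.36. The ubiquitin ligase gene HUWE1 (34.8 and 23.9 FPKM, a change of -0.52) and the deubiquitinase gene USP9X (10.7 and 10.3 FPKM) were not past it. Among 18 genes for kinases and binders of BAD and BIM, 1 was higher and 1 lower past 1.5-fold. The higher gene, DYNLL1, encodes a dynein light chain that tethers BIM, and was at 16.9 FPKM with sh-Control and 46.0 FPKM with sh-CRNDE, giving a change of 1.40. The medians of these lists were -0.04 and 0.19.

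Of 13 transcription factor genes known to act on the family, 1 was higher and 3 were lower past 1.5-fold, with a median change of -0.14. MYC was at 43.8 FPKM with sh-Control and 26.9 FPKM with sh-CRNDE, giving a change of -0.68. The paralogs STAT5A and STAT5B, which carry cytokine signals to BCL2L1 and MCL1, differed in opposite directions. STAT5A was at 8.64 FPKM with sh-Control and 4.60 FPKM with sh-CRNDE, giving a change of -0.78, and STAT5B at 5.99 and 13.9 FPKM, a change of 1.10. The coding sequences of this pair are alike, so reads of either may have been given to the other. FOXO3, a known activator of BCL2L11, was at 5.35 FPKM with sh-Control and 4.75 FPKM with sh-CRNDE, and was not past the threshold.

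**Figure D5:**
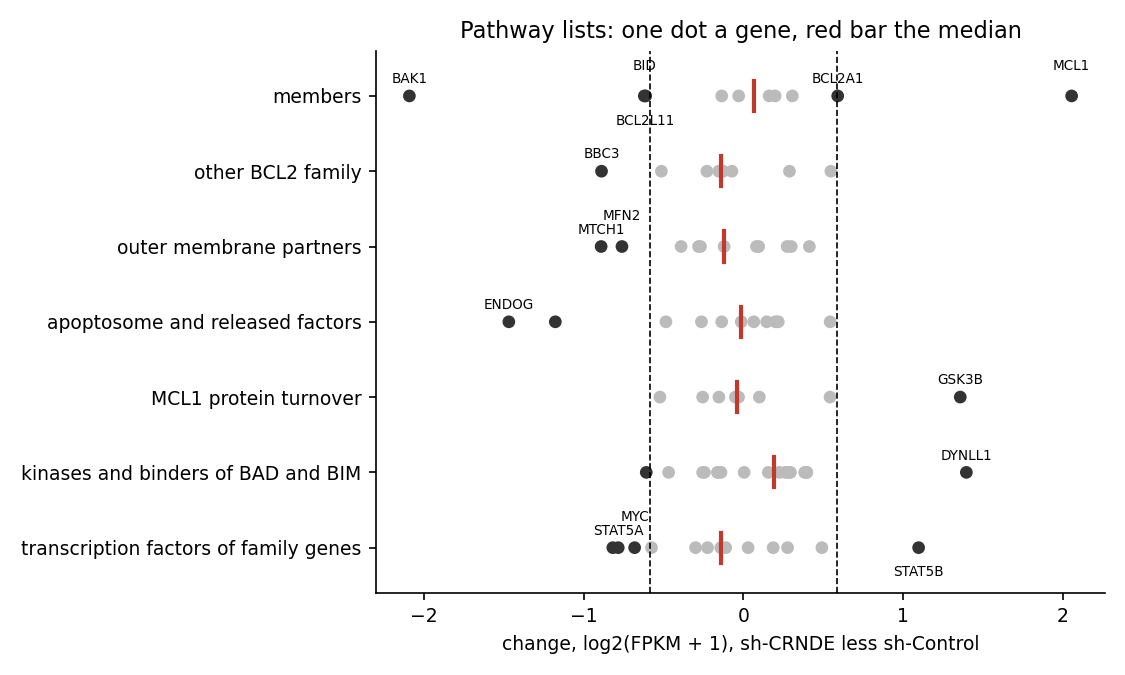
Change in log2(FPKM + 1), sh-CRNDE less sh-Control, of the members and of the genes of 6 other lists, with 1 dot per gene, dark where past 1.5-fold (dashed lines) and most of these named, and a red bar at the median of each list. The medians of the other lists lie between -0.14 and 0.19, and MCL1 and BAK1 are the most distant dots on either side.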

How the data were processed

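RNA of NB4 cells with sh-CRNDE or sh-Control was sequenced on an Illumina MiSeq from TruSeq RNA v2 libraries, 1 per group. The submitters' processing notes name fastp 0.20.0, HISAT2 2.0.4, StringTie 1.2.3 and GRCh38. The authors deposited FPKM values per gene, and each listed gene is above 0.5 FPKM in at least 1 library. The annotation release is not given in the sources used here. Groups were taken from the labels, and genes were matched by symbol and Ensembl identifier. No count model was fitted and no test between the libraries was run. Changes are differences of log2(FPKM + 1). The members and lists were chosen with earlier results of these data known. The text names the 10 members, the listed BCL2 family genes, genes of the other lists past 1.5-fold (a few of which are counted but not reported here by name) and CRNDE, and a few list genes chosen after their values were seen (VDAC2, MTCH2, CYCS, HUWE1, USP9X and FOXO3). With 2 libraries no similarity of patterns across samples was computed. Gene models, with their exons, 3′ UTRs and GC content, were those of GENCODE release 44 on GRCh38, to which 11508 of the 11619 identifiers matched, and mature microRNAs from RefSeq. Alternatives were pseudocounts of 0.1 and 0.01, centring on the median change, quantile normalization, TPM computed after leaving out genes of mitochondrial, ribosomal and small RNA, subtraction of the median change in 20 bins of GC content, at least 1 FPKM in both libraries, and a threshold of 2-fold. A planned search for motifs in the members' proteins was not run. The code that computes changes and counts was checked by multiplying sh-Control values by known folds, without noise. This tests the arithmetic and says nothing about the spread between libraries. Python 3.11.15 with numpy 2.4.6, pandas 2.3.3 and matplotlib 3.10.9 was used.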

Additional observations from a re-analysis of the deposited data

How the results depend on the processing

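Each condition rests on 1 library, so condition and library cannot be told apart. No paired analysis was possible because each group has 1 sample and the labels carry no replicate numbers. Of 7 alternatives for each member (6 for BCL2, which is under 1 FPKM in sh-Control), the direction of every change past 1.5-fold held, and BCL2A1 (0.44 after GC correction) and BCL2L11 (-0.58 after quantile normalization) were no longer past it. Members past 1.5-fold numbered 4 under each of these settings, with 1 higher in place of 2 after GC correction, and 2 (1 higher and 1 lower) at a threshold of 2-fold. Genes past 1.5-fold numbered 2000 with the settings used in the sections above, a count made here and not the study's own. They numbered 3301 (1580 higher and 1721 lower) with a pseudocount of 0.1 and 3481 (1653 and 1828) with 0.01. On TPM, on which the pseudocount of 1 weighs less, they numbered 3133 (1466 and 1667). Of the 8773 genes that reached 1 FPKM in each library, 1239 (585 and 654) were past 1.5-fold. At 2-fold the count over all genes was 774 (399 and 375). The anti-apoptotic class, with a change of 1.55 as a sum, was at 0.45 as a median over its members and at 0.39 without MCL1, and the effector class, with -1.21, was at -0.14 without BAK1, all under 1.5-fold. The BH3-only class, with -0.52 as a sum, was past 1.5-fold as a median, at -0.61. Sums without a gene were chosen after seeing the data.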

Other observations

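Genes for proteins that bind members of the BCL2 family, listed after the data had been seen, were 16 in number. Of these, 1 was higher and 2 were lower past 1.5-fold, with a median change of 0.09. Over all listed genes 17.2% were past it, 8.38% higher and 8.83% lower, and nothing is read from the count. BNIP2, which encodes a protein found through its binding to BCL2, was at 4.19 FPKM with sh-Control and 13.3 FPKM with sh-CRNDE, giving a change of 1.47. BAG4 was at 8.10 and 2.90 FPKM, a change of -1.22, and SIVA1, an adaptor known to bind BCL-XL, at 7.11 and 3.78 FPKM, a change of -0.76 that came to -0.50, within 1.5-fold, after the subtraction for GC content. TPT1, whose protein is known to bind MCL1, was among the abundant genes of the list, with 226 FPKM with sh-Control and 180 FPKM with sh-CRNDE, giving a change of -0.33.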
